A study of Daphnia magna with 48 samples.

Results

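The experiment with 3,4-dichlorophenol is held by 6 of the 48 arrays of the study, 3 from exposed and 3 from control animals, taken by sample title. It was examined over all 6006 probes whose identifiers start with DM. The animals were Daphnia magna, a freshwater water flea, less than 24 h old at the start of a 96 h exposure. The exposed group received 3,4-dichlorophenol at the EC10, at which 10% of animals had become immobile in separate tests of the same length, and the control group is labelled as control and was kept for the same 96 h. Each replicate was RNA from the whole bodies of 30 pooled animals taken at day 4, and the labels call the 3 samples of a group biological replicates. Each array set one such sample against a reference mixed from control and exposed material of the study, with 100 ng of RNA as starting amount. The other 7 chemicals, each with 3 exposed and 3 control arrays of its own, were isobutanol, 3-chloropropanol, aniline, 4-chloroaniline, 3,5-dichloroaniline, 2,3,4-trichloroaniline and cadmium, and renewal of the medium every 48 h is given for the anilines.

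Chlorophenols are weakly acidic aromatic compounds that carry chlorine and a hydroxyl group on a benzene ring. They are classed among the polar narcotics, chemicals that are somewhat more toxic than their solubility in membranes alone predicts, and many of them are also known to carry protons across the inner mitochondrial membrane and so uncouple respiration from ATP synthesis. Daphnia filter-feed and take up such chemicals across the gills and gut, and pools of whole animals average over all tissues and moulting stages. In such pools, fewer cells of a type and less RNA per cell cannot be told apart. No probe is paired with a gene name in the tables used here, so probes are given by identifier, no gene function is stated and no tissue marker was examined. Each DM number had 1 probe, so no probe could be compared with another of the same number.

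Every value below is a log2 ratio of the sample to the reference, or a difference between such ratios, and 1 unit is a 2-fold change. The base of the logarithm was inferred from the values. The direction is likely sample over reference, which no label settles. Among 510 probes that varied most over the 48 arrays (SD of 0.6 or more), the median of the log2 mean ratio was -0.001 in the deposited values and would be 0.47 after turning the sign. If the sign were turned, every rise here would read as a fall and no count would change. Ratios carry no brightness, so signal over background is unknown for every probe, and the number of arrays limits the precision. In the control group the sample was in the dye Cy3 on replicates 1 and 2 and in Cy5 on replicate 3. In the exposed group it was in Cy5 on replicates 1 and 3 and in Cy3 on replicate 2. A dye effect was called on 2115 probes, so dye was a term in the fit and deviations are given with the fitted dye effect subtracted where stated.

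The 6 arrays resembled each other more within groups than between them on average, but the ranges overlapped. The correlation over probes was 0.52 to 0.75 (mean 0.63) among the 3 control arrays. It was 0.60 to 0.77 (mean 0.69) among the 3 exposed arrays, while exposed and control arrays correlated at 0.28 to 0.60 (mean 0.46). The highest of the latter was between exposed replicate 1 and control 3, both in Cy5. It was no lower than that between exposed replicates 1 and 2, and above the 0.52 between controls 1 and 3. Dye was not balanced over these pairs. Of the 6 arrays labelled 3-chloropropanol, the 3 with the sample in Cy3 (control 2 and exposed 1 and 2) had correlations of 0.57 to 0.84 with the 3,4-dichlorophenol arrays of equal treatment, and the 3 in Cy5 had 0.02 to 0.29. Effects of 3-chloropropanol are therefore given with and without those 3 arrays. Without them that chemical rests on exposed replicate 3 and on controls 1 and 3, which correlated at 0.94 with each other, and its lone exposed array is assumed to vary like the other groups. They also enter the estimate of the spread. Without them 218 probes were called for 3,4-dichlorophenol in place of 171, and 170 of the 171 were among them. The residual SD within the 3,4-dichlorophenol groups was 0.21, against 0.24 over all groups.

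After exposure to 3,4-dichlorophenol, 77 probes were higher and 94 were lower than in the controls. These are the probes with a Benjamini-Hochberg adjusted p under 0.05 in a limma fit over all 48 arrays, and they are referred to as called. They make 171 of 6006 probes or 2.85%, of which the rises are 1.28% and the falls 1.57% of all probes. Of the rises 26, and of the falls 35, reached 2-fold. The median 95% confidence interval of a probe's log2 fold change was ± 0.28 wide on each side, and 794 probes had an unadjusted p under 0.05. The rises had a median log2 fold change of 0.80 and ran from 0.31 to 2.23, and the falls had a median of -0.87 and ran from -4.24 to -0.31. The number of calls rested on single arrays: it was 82 without exposed replicate 1, 98 without exposed replicate 3, 98 without control 1 and 110 without control 2.

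The largest rise was that of DM03356P1, from 0.67, -0.58 and -1.14 in controls 1 to 3 to 2.03, 1.18 and 1.90 in exposed replicates 1 to 3. All 3 exposed values lay above the controls, and the controls themselves spread over almost 2 log2 units. The log2 fold change was 2.23 ± 0.52 (SE, n = 3 and 3, limma adjusted p = 0.00934), and without exposed replicate 1 it was 1.98 with an adjusted p of 0.0873. The call was also lost without exposed replicate 3 and without control 2 or 3. DM01852P3 was steadier in the controls, at 0.15, 0.03 and -0.72, and stood at 2.55, 1.19 and 1.78 in the exposed replicates. It rose by 2.07 ± 0.31 (limma adjusted p = 4.18e-05). Exposed replicate 1 was the highest array for both probes. The largest fall was that of DM01862P3, at -0.56, -1.24 and -0.09 in the controls and at -1.11, -5.93 and -7.13 in the exposed replicates. Exposed replicate 1 lay inside the range of the controls, and replicates 2 and 3 lay more than 4 log2 units below it. The log2 fold change of -4.24 ± 0.82 (limma adjusted p = 0.00152) is thus a mean over unlike replicates. This SE takes the spread from all groups of the study, while the SD among the 3 exposed values of the probe was 3.19. In a fit of the 6 arrays of the experiment alone its limma adjusted p was 0.239. DM07984P1 stood at -0.50, -0.998 and -0.45 in the controls and at -1.47, -5.54 and -6.77 in the exposed replicates, with replicate 1 below all 3 controls, and had a log2 fold change of -3.94 ± 0.74 (limma adjusted p = 0.00118, and 0.219 in the fit of the 6 arrays alone). The depth and rank of these falls depended on the scaling. After quantile normalization DM01862P3 stood at -2.31 and DM07984P1 at -1.94, less deep than DM01276P2 at -3.17, a fall described below.

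**Figure D1:**
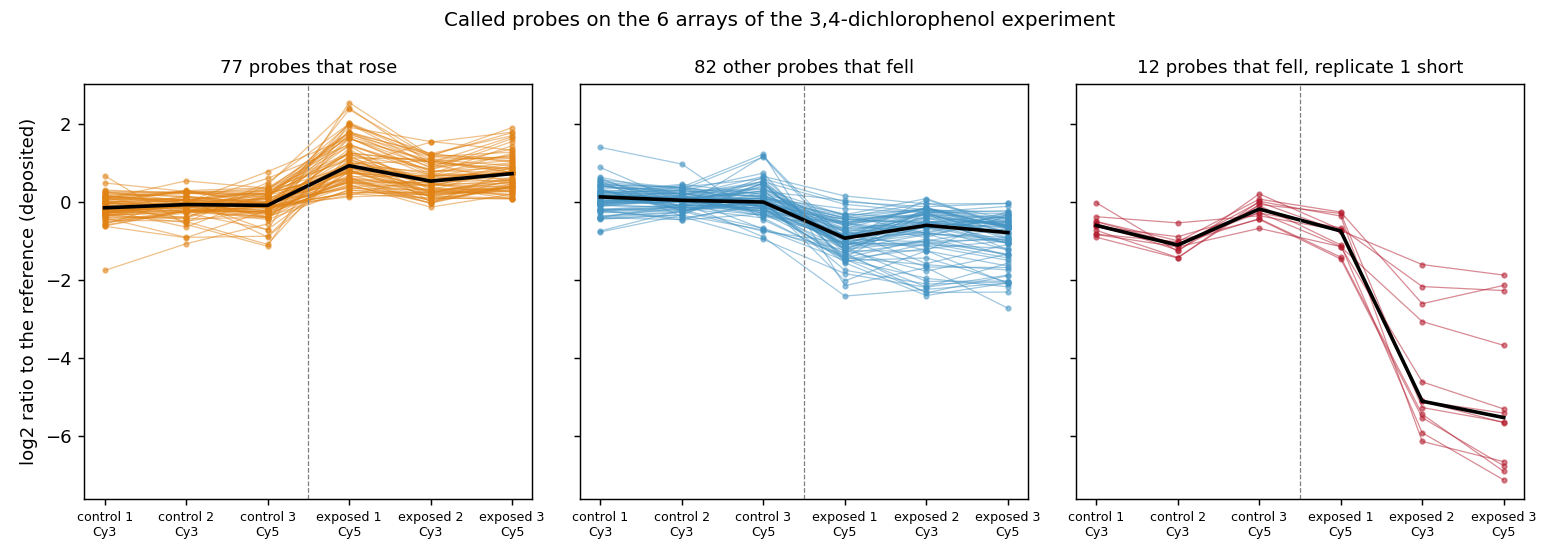
Deposited log2 ratio to the reference of the 171 called probes on the 3 control and 3 exposed arrays, with 1 thin line per probe, the black line at the median and the dye of the sample under each array name. The medians of the 77 rises and of 82 falls move on all 3 exposed arrays, while 12 falls stay near the controls on exposed replicate 1 and drop on replicates 2 and 3.

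Among the called probes, exposed replicate 1 deviated much less than replicates 2 and 3 on 12 falls. For each called probe the deviation of replicate 1 from the control mean was divided by the mean deviation of replicates 2 and 3, with the dye effect subtracted. This ratio was under 0.5 for 13 of the 171 probes, 12 falls and 1 rise. Among the falls the 12 stood apart, with a ratio of at most 0.235, and the next lowest ratio was 0.512. The other 82 falls had a median ratio of 1.05 and the 77 rises a median of 1.48. The single rise was DM11179P4, at -0.27, 0.06 and -0.16 in the controls and 0.16, 0.65 and 0.98 in the exposed replicates, a rise of 0.74 ± 0.17 (limma adjusted p = 0.0101) with a ratio of 0.34. Its call was lost without exposed replicate 3 and without control 1. The 13 probes were picked by these values, so the gap between replicates is a description with no test.

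In the fit of the deposited values the 12 included the 8 deepest falls of the experiment. On the deposited scale their median deviation from the control mean was -0.28 on exposed replicate 1, -4.53 on replicate 2 and -4.87 on replicate 3. Replicate 1 lay within the range of the 3 controls for 8 of them and below all controls for 4, whereas replicates 2 and 3 lay below all controls for 12 of 12. The probe with the largest shortfall was DM03618P2, at -0.91, -1.44 and 0.01 in the controls and -0.36, -6.15 and -6.67 in the exposed replicates. Its log2 fold change was -3.82 ± 0.88 (limma adjusted p = 0.00859), and the call was lost without exposed replicate 2 or 3 and without control 3. It was also lost in the fit of the 6 arrays alone and after quantile normalization, where the log2 fold change was -1.95. Within Cy5, which holds exposed replicates 1 and 3 and control 3, the effects of the 12 ran from -4.03 to -0.95, and within Cy3, which holds exposed replicate 2 and controls 1 and 2, from -5.03 to -1.15.

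By their values the 12 can be described as 8 deeper and 4 shallower falls. For the 8 the level ran from -1.47 to -0.30 on exposed replicate 1, from -6.15 to -4.62 on replicate 2 and from -7.13 to -5.31 on replicate 3. For the 4 it ran from -1.15 to -0.26 on replicate 1, from -3.07 to -1.61 on replicate 2 and from -3.68 to -1.88 on replicate 3. In both groups replicate 1 stood apart from replicates 2 and 3 with no overlap, but the 12 were picked by that gap, so nothing is read from it. The log2 fold changes of the 8 lay between -4.24 and -3.05 and those of the 4 between -1.75 and -0.98. Without exposed replicate 1 all 12 were called, with log2 fold changes from -5.94 to -1.31, in a comparison that called 82 probes or 1.37% of all. Leaving out the array by which the 12 were picked favours that outcome. Without exposed replicate 2 or 3 the fit kept 7 and 5 of the 12, and without control 1, 2 or 3 it kept 8, 9 and 7. With arrays scaled to equal spread 9 of the 12 were kept, and after quantile normalization 7. In a fit of the 6 arrays of the experiment alone, which takes the spread from these arrays, 37 probes were called and 0 of the 12 were among them. That fit kept 15 of the other 82 falls and 13 of the 77 rises.

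**Figure D2:**
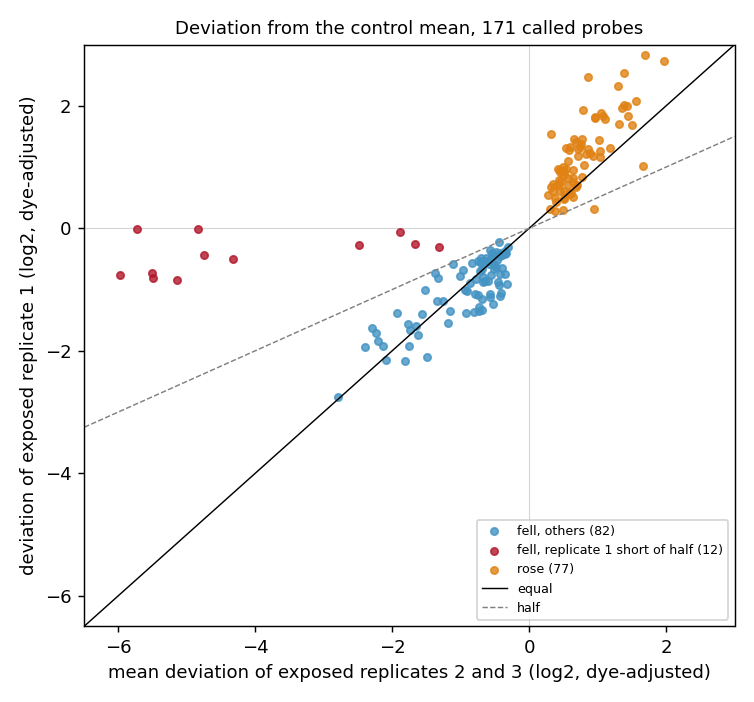
Deviation of exposed replicate 1 from the control mean (y axis, log2, dye effect subtracted) against the mean deviation of exposed replicates 2 and 3 (x axis, log2, dye effect subtracted) for the 171 called probes, with a solid line of equal deviation and a dashed line at a ratio of 0.5. The 12 falls lie in a band near 0 on the y axis and apart from the 82 other falls, and most rises lie above the solid line.

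The other called probes are described next; since they were called with replicate 1 in the fit, and the 82 falls are those left after the 12 were set aside, their levels by replicate carry no test. Among the 77 rises the median deviation was 1.04 on replicate 1, 0.64 on replicate 2 and 0.74 on replicate 3, with the dye effect subtracted. Replicate 1 exceeded the mean of replicates 2 and 3 for 66 of the 77 rises and was the highest of the 3 for 59. Without subtraction of the dye effect it exceeded that mean for 68. Among the 82 other falls the median deviations were -0.87, -0.64 and -0.78 on replicates 1, 2 and 3.

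Each replicate was also examined on probes it had not helped to choose, those called in the fit without it. Without replicate 1, 82 probes were called, and replicate 1 showed a median of 90.9% of the mean deviation of the other exposed replicates on them. That share was 130% over the 27 rises and 76.1% over the 55 falls. It was under 0.5 of the deviation for 17 of the 82 probes (20.7%). The 17 included the 12 falls, but these had been picked by the values of replicate 1, so nothing is read from that. Without replicate 2, 190 probes or 3.16% were called, and replicate 2 showed a median share of 58.4%, with 49.9% over 108 rises and 74.4% over 82 falls. It was under 0.5 for 74 of the 190 (38.9%), and 0 of the 12 falls were among the lowest of them, those under 0.25. That fit called 7 of the 12, and the values of replicate 1 that picked them enter the share of replicate 2. Nothing is read from this count either. Without replicate 3, 98 probes or 1.63% were called, with a median share of 86.2% for replicate 3, which was 79.5% over 50 rises and 106% over 48 falls and under 0.5 for 7 of the 98 (7.14%). By this measure replicate 2 had the lowest median share, over rises and over falls, but over falls it was close to replicate 1 (74.4% and 76.1%). On the probes past 2-fold in the same fits the median shares were 76.7%, 73.4% and 86.7% for replicates 1 to 3. Picking probes by the other exposed replicates also favours a low share for the one left out. The 3 shares rest on different probes, and no test of their order was made.

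Most called changes held in all 3 exposed replicates. The exposed values lay beyond all control values for 153 of the 171 called probes, 74 rises and 79 falls. Over all 6006 probes this held for 1213 or 20.2%, and since the calls were made on the same values, nothing is read from the difference. Of the 15 falls whose groups overlapped, 8 belonged to the 12 falls short in replicate 1, and 3 rises overlapped. With the dye effect subtracted the number of called probes without overlap was 167, and over all probes it was 1406 or 23.4%. The sign of the change was the same within Cy3 arrays and within Cy5 arrays for 171 of 171. The calls were made on these same arrays with dye in the fit, and the share over all probes is not given. Nothing is read from this count. With the dye effect subtracted, all 3 replicates deviated by 2-fold or more in the same direction for 35 of the called probes, 15 rises and 20 falls. The share over all probes is not given for this either, so nothing is read from the count. Without exposed replicate 1, all 82 called probes had no overlap between 2 exposed and 3 control arrays, as did 1898 or 31.6% of all probes, and again nothing is read from it.

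Among the rises, DM08411P1 had the largest deviation in its weakest replicate. It stood at -1.76, -1.08 and -0.56 in the controls and at 0.77, 0.23 and 0.63 in the exposed replicates, a rise of 1.57 ± 0.29 (limma adjusted p = 0.00119), which lost the call in the fit of the 6 arrays alone and after quantile normalization. DM06837P1 was next, at -0.05, 0.30 and -0.09 in the controls and 1.91, 1.55 and 1.33 in the exposed replicates. Its rise of 1.62 ± 0.19 (limma adjusted p = 1.93e-06) was kept under all 15 alternative settings tried. For DM06837P1 the gap between the groups exceeded the range of either group, and for DM08411P1 it was narrower than the range of the controls. The 15 rises together had medians of 1.80, 1.16 and 1.33 on exposed replicates 1 to 3, and of -0.17, -0.18 and -0.06 on controls 1 to 3.

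Among the falls, DM01276P2 held the largest deviation in its weakest replicate. It stood at 0.13, 0.38 and 1.22 in the controls and at -2.15, -1.68 and -2.73 in the exposed replicates, a fall with a log2 fold change of -2.78 ± 0.48 (limma adjusted p = 0.000375). In the fit of the 6 arrays alone its adjusted p was 0.0510. DM01575P4 followed, at -0.36, -0.26 and 0.47 in the controls and -1.47, -2.33 and -2.32 in the exposed replicates, with a log2 fold change of -2.24 ± 0.28 (limma adjusted p = 2.38e-06), and it was called under all 15 alternative settings. Replicate 1 was the least changed for DM01575P4 and lay between the others for DM01276P2. The 20 falls together had medians of -1.45, -1.53 and -1.89 on exposed replicates 1 to 3, and of 0.16, -0.06 and 0.31 on controls 1 to 3.

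**Figure D3:**
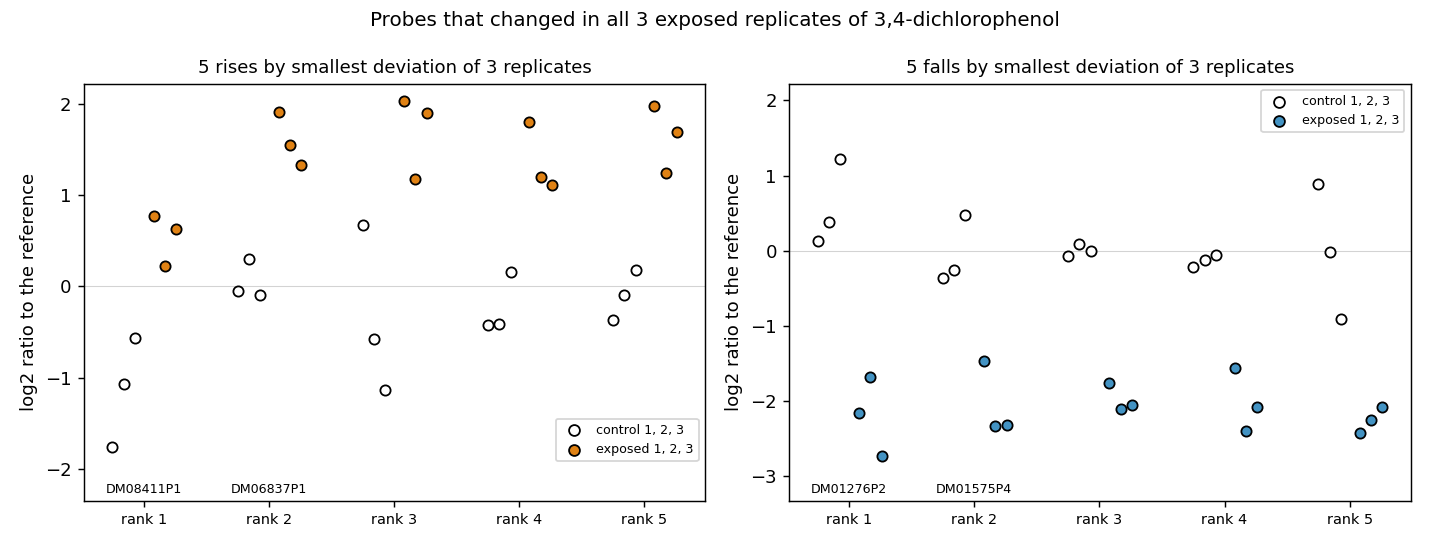
Log2 ratio to the reference in each control replicate (open) and exposed replicate (filled, both from replicate 1 at left to 3 at right) for the 5 rises and 5 falls with the largest deviation in their weakest replicate. No exposed value reaches the range of the controls of its probe, and DM01276P2 shows the widest gap.

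The responses to the other chemicals were then read on the probes called for 3,4-dichlorophenol. Each chemical had its own control arrays, and all share the fitted dye term. Isobutanol, a simple alcohol that acts as a non-polar narcotic, was called in the same direction on 117 of the 171 and in the opposite direction on 3, where it called 12.6% of all probes. 3-Chloropropanol was called in the same direction on 98 and opposite on 0, against 8.72% of all probes. Without its 3 Cy3 arrays it was called in the same direction on 53 and opposite on 1, against 7.23%. Cadmium, a metal and no narcotic, was called in the same direction on 62 and opposite on 1, against 2.95%. 2,3,4-Trichloroaniline was called in the same direction on 41 and opposite on 1, against 3.9%. Aniline and 3,5-dichloroaniline called 0 probes (0% of all), and 4-chloroaniline called 2 probes (0.0333%), none of them among the 171. At an unadjusted p under 0.05, these 3 anilines had 371, 265 and 603 probes. With exposed replicate 1 of 3,4-dichlorophenol left out, so that 82 probes were called, the counts in the same direction were 61 for isobutanol, 65 for 3-chloropropanol (41 without its 3 Cy3 arrays), 48 for cadmium and 27 for 2,3,4-trichloroaniline.

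Of the 77 rises, 52 were called higher with isobutanol, 40 with 3-chloropropanol (15 without its 3 Cy3 arrays), 28 with cadmium and 24 with 2,3,4-trichloroaniline. Median effects on the rises were 0.73 for isobutanol, 0.55 for 3-chloropropanol (0.26 without its 3 Cy3 arrays), 0.50 for 2,3,4-trichloroaniline and 0.43 for cadmium, beside 0.80 for 3,4-dichlorophenol. Of the 82 other falls, 53 were called lower and 3 higher with isobutanol, 47 were called lower with 3-chloropropanol (27 without the 3 arrays), and 23 were called lower and 1 higher with cadmium. With 2,3,4-trichloroaniline 5 of these falls were called lower and 1 higher. Median effects on the 82 other falls were -0.66 for isobutanol, -0.51 for 3-chloropropanol (-0.49 without the 3 arrays), -0.34 for cadmium and -0.10 for 2,3,4-trichloroaniline, beside -0.75 for 3,4-dichlorophenol. Over all probes the median effect of each chemical lay within 0.02 of 0. Aniline, 4-chloroaniline and 3,5-dichloroaniline had medians of 0.00, 0.07 and 0.08 on the rises and -0.02, -0.03 and 0.12 on the 82 falls. The contrast between rises and falls was not tested.

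**Figure D4:**
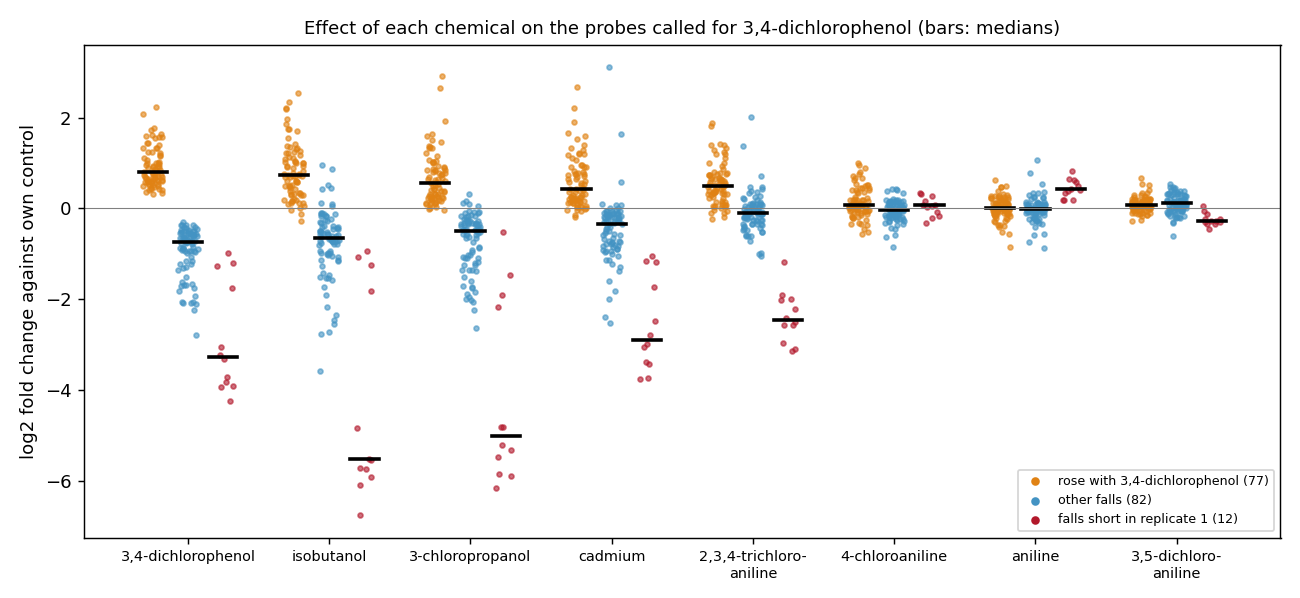
Log2 fold change of each chemical against its own control (y axis) on the 77 rises, the 82 other falls and the 12 falls short in replicate 1, all called for 3,4-dichlorophenol, with 1 point per probe and a bar at each median. The medians of isobutanol are 0.73 on the rises and -0.66 on the 82 falls, and those of cadmium 0.43 and -0.34. 2,3,4-Trichloroaniline has a median of 0.50 on the rises and -0.10 on the 82 falls. The medians of the remaining anilines on the rises and on the 82 falls lie between -0.03 and 0.12. On the 12 falls they are 0.42 for aniline, 0.07 for 4-chloroaniline and -0.28 for 3,5-dichloroaniline.

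The called probes at 2-fold or more in all 3 replicates were read in the same way. Over all probes, isobutanol called 378 higher and 381 lower, and 3-chloropropanol 308 and 216. Cadmium called 107 higher and 70 lower over all probes, and 2,3,4-trichloroaniline 138 and 96. Of the 15 rises 12 were called higher with 3-chloropropanol (6 without its 3 Cy3 arrays), 10 with isobutanol, 10 with cadmium and 6 with 2,3,4-trichloroaniline. Of the 20 falls 15 were called lower with 3-chloropropanol (10 without the 3 arrays), 12 with isobutanol, 10 with cadmium and 2 with 2,3,4-trichloroaniline, and cadmium and 2,3,4-trichloroaniline were each called higher on 1. DM01276P2 is an example of opposite responses. Its log2 fold change was -2.55 with isobutanol and 2.01 with 2,3,4-trichloroaniline (limma adjusted p = 0.000264 and 0.0130), and 1.64 with cadmium (adjusted p = 0.0548). DM01575P4 was also called lower with 3-chloropropanol (-2.24, or -1.77 without its 3 Cy3 arrays) and with cadmium (-2.51), and its effects with isobutanol and 2,3,4-trichloroaniline were -0.71 and -0.35. For DM01575P4 the 3,4-dichlorophenol effect differed from that of isobutanol by -1.53 ± 0.40 (limma adjusted p = 0.0452) and from that of 2,3,4-trichloroaniline by -1.89 ± 0.40 (limma adjusted p = 0.0150). DM06837P1 was called higher with isobutanol (2.21), 3-chloropropanol (1.22, or 0.78 without the 3 arrays), cadmium (1.21) and 2,3,4-trichloroaniline (0.74).

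The 12 falls short in replicate 1 fell with several other chemicals, whose calls over all probes are given by direction above. The 12 were called lower with isobutanol and 2,3,4-trichloroaniline for 12 of 12, and with 3-chloropropanol and cadmium for 11 of 12. For 3-chloropropanol 11 of them were called lower without its 3 Cy3 arrays as well. Their mean level on the 3,4-dichlorophenol arrays was -0.59, -1.11 and -0.20 in controls 1 to 3 and -0.84, -4.39 and -4.96 in exposed replicates 1 to 3. Over the 24 control arrays of the study this mean ran from -1.11 to 0.93 with a median of -0.24. Exposed replicate 1 lay inside that range.

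On the arrays exposed to isobutanol the mean level of the 12 was -5.05 to -4.30 and on those exposed to 3-chloropropanol -5.07 to -4.26. Both ranges include 3,4-dichlorophenol replicates 2 and 3. The cadmium arrays stood at -4.32, -2.61 and -2.49 and the 2,3,4-trichloroaniline arrays between -2.53 and -1.59. With aniline, 4-chloroaniline and 3,5-dichloroaniline the exposed arrays stood between -0.59 and 0.52, within the range of the controls. Replicate 1 of 3,4-dichlorophenol was below all 3 exposed arrays of aniline and of each other aniline that called 2 or fewer probes. It was above all exposed arrays of the chemicals that called most of the 12. The 8 deeper probes had median effects of -5.73 with isobutanol, -5.40 with 3-chloropropanol (-5.42 without its 3 Cy3 arrays), -3.22 with cadmium and -2.56 with 2,3,4-trichloroaniline, beside -3.77 with 3,4-dichlorophenol. The 4 shallower probes had medians of -1.16, -1.69 (-1.73 without the 3 arrays), -1.17 and -1.94 with the same chemicals, beside -1.24. Why replicate 1 differed on these probes was not tested.

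**Figure D5:**
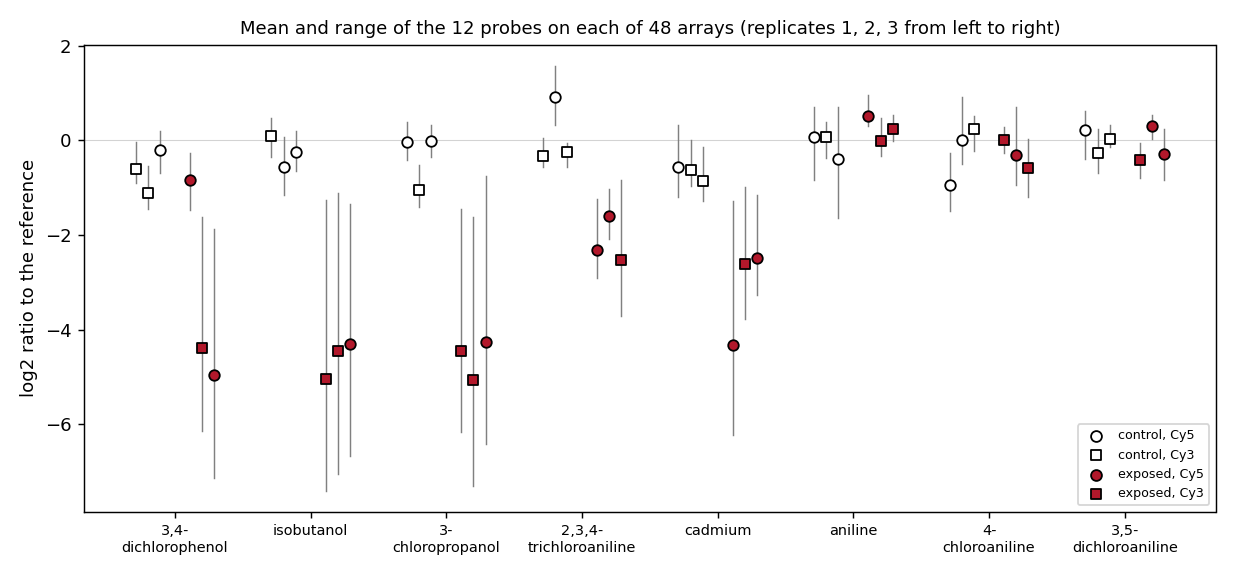
Mean (marker) and range (line) of the log2 ratio to the reference over the 12 falls short in replicate 1 on each of the 48 arrays, by chemical, treatment and dye of the sample, with replicates 1 to 3 from left to right. Exposed replicate 1 of 3,4-dichlorophenol stands at -0.84, within the controls, while replicates 2 and 3 stand at -4.39 and -4.96 beside the isobutanol and 3-chloropropanol arrays.

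Of the 171 called probes, 26 were called with no other chemical, 43 with 1 other, 50 with 2, 28 with 3 and 24 with 4. Without the 3 Cy3 arrays of 3-chloropropanol in that chemical's test the numbers were 30, 58, 46, 19 and 18. The same tally over all probes is not given, so nothing is read from either set of numbers. The 26 were 14 rises and 12 falls, with log2 fold changes from -2.11 to 1.45 and a median absolute value of 0.59, against 0.88 for those called elsewhere, and 2 of the rises and 3 of the falls reached 2-fold. The deepest was DM01584P1, at 0.88, -0.02 and -0.90 in the controls and -2.42, -2.24 and -2.08 in the exposed replicates. Its log2 fold change was -2.11 ± 0.52 (limma adjusted p = 0.0154, and 0.0706 without exposed replicate 1), and the controls spread far more than the exposed replicates. The highest was DM05759P4, at 0.09, -0.02 and -0.003 in the controls and 0.92, 1.53 and 1.79 in the exposed replicates, a rise of 1.45 ± 0.42 (limma adjusted p = 0.0484) that was lost when any one of the 6 arrays was left out. The probes with the smallest effects in all other chemicals had small effects with 3,4-dichlorophenol too. DM00205P1 rose by 0.36 ± 0.10 (limma adjusted p = 0.0326), from -0.28, -0.11 and 0.06 to 0.50, -0.03 and 0.41, and the groups overlapped. DM05739P1 had a log2 fold change of -0.31 ± 0.09 (limma adjusted p = 0.0466), from -0.01, 0.04 and 0.09 to -0.18, -0.28 and -0.23 without overlap. These calls were among the least stable: they were lost in 8 and 11 of 14 alternative settings. The first was lost without exposed replicate 1 or 3 and without control 1 or 2, the second without any one of the 6 arrays. A call with 3,4-dichlorophenol and none with another chemical does not show that the effects differ.

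The effect of 3,4-dichlorophenol was therefore also set directly against that of 3 other chemicals, each relative to its own control. 3,5-Dichloroaniline likewise has a pair of chlorines on a benzene ring, at other positions, and carries an amino group in place of the hydroxyl group. The difference between the effects was called on 52 probes or 0.866%, higher with 3,4-dichlorophenol on 13 and lower on 39. Of these, 46 were called for 3,4-dichlorophenol, or 26.9% of the 171, and 0 for 3,5-dichloroaniline. The count was 33 without control 1 or control 3 of 3,4-dichlorophenol and 110 without the 3 Cy3 arrays of 3-chloropropanol. The interval of a probe's difference was ± 0.39 at the median, and 626 probes had an unadjusted p under 0.05. On the remaining probes a difference within these intervals was not detectable, which does not show that the compounds act alike. DM01852P3 differed by 1.87 ± 0.44 (limma adjusted p = 0.0261), with an effect of 2.07 for 3,4-dichlorophenol and 0.20 for 3,5-dichloroaniline. This call was lost without exposed replicate 1 or 3 and without control 3. DM08371P4 differed by 1.84 ± 0.38 (limma adjusted p = 0.00803), with effects of 1.77 and -0.07. DM02404P3 and DM01506P1 differed by -2.22 ± 0.40 and -2.21 ± 0.40 (limma adjusted p = 0.00251 for both), with effects of -2.09 and -2.06 for 3,4-dichlorophenol and 0.14 and 0.15 for 3,5-dichloroaniline. For the 12 falls short in replicate 1 the difference ran from -3.90 to -1.03, and 0 were called, with a smallest adjusted p of 0.0898. Their 95% intervals were wide, and for DM01862P3 it ran from -6.23 to -1.57.

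Against 2,3,4-trichloroaniline, the difference was called on 47 probes or 0.783%, 15 higher and 32 lower with 3,4-dichlorophenol. On 37 of the 47 the effects of the chemicals had opposite signs, 15 were called for 3,4-dichlorophenol and 30 for 2,3,4-trichloroaniline, and 625 probes had an unadjusted p under 0.05. Without exposed replicate 3 of 3,4-dichlorophenol the count was 16, without controls 1, 2 or 3 it was 22, 27 or 20, and without the 3 Cy3 arrays of 3-chloropropanol it was 103. DM01276P2 differed by -4.79 ± 0.68 (limma adjusted p = 9.54e-05). DM10770P3 differed by -3.07 ± 0.40 (limma adjusted p = 2.57e-05) through a rise of 2.56 with 2,3,4-trichloroaniline, and its effect with 3,4-dichlorophenol was -0.52 (adjusted p = 0.445). In the other direction, DM07826P1 and DM02813P3 each differed by 2.93, with SEs of 0.64 and 0.70 (limma adjusted p = 0.0223 and 0.0309). For both the control groups stood far apart, at means of -2.44 and -2.07 with 3,4-dichlorophenol and 1.03 and 0.88 with 2,3,4-trichloroaniline, and neither was called with 3,4-dichlorophenol. Both calls were lost without exposed replicate 3 and without control 2 or 3, and that of DM02813P3 also without exposed replicate 2.

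Against isobutanol the difference was called on 78 probes or 1.3%, 22 higher and 56 lower with 3,4-dichlorophenol. Of these, 69 were called for isobutanol, 18 for 3,4-dichlorophenol and 11 for both, and 560 probes had an unadjusted p under 0.05. DM07052P1 differed by -5.35 ± 0.62 (limma adjusted p = 1.04e-06), with a rise of 4.90 with isobutanol and an effect of -0.44 with 3,4-dichlorophenol. DM12053P2 differed by -2.80 ± 0.41 (limma adjusted p = 7.79e-05), with effects of 2.06 and -0.75. DM04157P2 and DM11589P3 differed by 1.97 ± 0.37 and 1.65 ± 0.33 (limma adjusted p = 0.00208 and 0.00318), with falls of -1.38 and -1.60 with isobutanol and effects of 0.59 and 0.05 with 3,4-dichlorophenol. The control groups of DM11589P3 stood at -0.25 with 3,4-dichlorophenol and 1.40 with isobutanol. On the 12 falls short in replicate 1 the difference ran from -0.13 to 2.52 and 0 were called, with a smallest adjusted p of 0.414. The number of calls in this comparison depended on the scaling of arrays. With arrays scaled to equal spread 20 probes were called, 1 of them higher, and after quantile normalization 11, of which 2 were higher. Most calls were lower in each of these fits, and a change of the split was not tested.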

How the data were processed

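The authors deposited 1 table of normalized log2 ratios with 6006 Daphnia probes, 27 control rows and 0 missing values over 48 arrays. The base 2 is an inference from the values, and the design and dyes are given per the labels. That swapped arrays were turned is read from the data: 7 control rows changed sign with the dye on all arrays, and opposite-dye arrays within the 3,4-dichlorophenol groups correlated at 0.52 to 0.77, and within all groups at -0.27 to 0.90 (mean 0.43). How the authors corrected background, normalized and filtered is not given in the sources used. The highest probe number was 15415, more than the table has probes. Array medians lay between -0.02 and 0.01 and the SD over probes of the 6 arrays between 0.34 and 0.46.

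Groups were taken from sample titles. The model, run in R 4.3.3 with limma 3.58.1 over all probes, had 16 group means and a dye term (31 residual and 3.65 prior degrees of freedom), with two-sided moderated tests and Benjamini-Hochberg adjustment within each comparison at 0.05. Every adjusted p is from limma. The fit was also run on simulated data, with no outcome given here, so nothing is read from that. Leaving out replicates, other scalings, array weights, a replicate block and fits of fewer arrays were tried as alternatives. The probes named are the first 2 in each direction by size of change, by the weakest replicate or by the shortfall of replicate 1. The first 2 in each direction by the difference between chemicals are named as well. By the smallest effects in other chemicals only the first in each direction was described. DM08954P2 and DM11432P2, which came second by that rule, lost the call in 10 of 14 settings each. DM02404P3 and DM01506P1 were named under the difference from 3,5-dichloroaniline, and from the shortfall list 1 fall and 1 rise, the latter for its ratio and chosen after its values were seen, as were DM01584P1 and DM05759P4, the extremes of the probes called with no other chemical. The experiment, its probe groups and these rules were chosen with earlier results of these data known. Same-numbered exposed and control arrays had deviations that correlated at 0.0982, 0.118 and 0.0932, so numbers were not taken to pair samples. The labels call replicates biological and say no more on how far they were separate. The p-values therefore rest on the spread between samples of a group. That spread is pooled over the 16 groups of the fit and is not that of this experiment alone. Figures were drawn with matplotlib 3.10.9.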

Additional observations from a re-analysis of the deposited data

Results flagged for a closer look

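The effect of 3,4-dichlorophenol differed from that of another chemical, by the limma test of the difference itself, on the 12 probes named for such differences, with values as 3,4-dichlorophenol minus the other chemical. Against 3,5-dichloroaniline, DM01852P3 differed by 1.87, DM08371P4 by 1.84, DM02404P3 by -2.22 and DM01506P1 by -2.21. The call of DM01852P3 was lost in 5 of 15 alternative settings, that of DM08371P4 in the fit of the experiments' own arrays, and that of DM02404P3 without the dye term. Against 2,3,4-trichloroaniline, DM07826P1 and DM02813P3 differed by 2.93 each, DM01276P2 by -4.79 and DM10770P3 by -3.07. The calls of DM07826P1 and DM02813P3 were lost in 4 and 5 of 15 settings, those of DM01276P2 and DM10770P3 in 0. Against isobutanol, DM04157P2 differed by 1.97, DM11589P3 by 1.65, DM07052P1 by -5.35 and DM12053P2 by -2.80. All 4 lost the call after quantile normalization, and DM04157P2 and DM11589P3 also with arrays scaled to equal spread. What lies behind these differences was not tested.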

How the results depend on the processing

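Counts of called probes changed with the setting. The settings differ in the values, the arrays, the threshold or the model, and why the counts moved was not tested. For 3,4-dichlorophenol against control, 171 became 639 with array weights, 91 with arrays scaled to equal spread, 96 after quantile normalization, 37 with the 6 arrays alone, 61 at 2-fold or more, and 82 to 190 with 1 replicate left out (82 without exposed 1, 98 without exposed 3, 98 without control 1 and 110 without control 2). Without exposed 1, 78 of the 171 were kept, and the count without overlap between groups was 82. The difference from 3,5-dichloroaniline, 52, became 25 without the dye term, 28 with the experiments' own arrays, 414 with weights, 33 after quantile normalization, 33 to 65 with 1 replicate left out (33 without control 1 and without control 3) and 110 without the 3 Cy3 arrays of 3-chloropropanol, an alternative added after seeing the data. That from 2,3,4-trichloroaniline, 47, became 31, 269 (152 higher), 404 (201 higher), 71, 16 to 49 and 103 (52 higher) under the same settings in turn, and 91 over the more variable probes. With arrays at equal spread 23 were higher and 24 lower. That from isobutanol, 78, became 395 with weights, 20 at equal spread, 11 after quantile normalization and 53 to 79 with 1 replicate left out. A replicate block gave 126, 35, 17 and 65 for the 4 comparisons, and it moved the third past 1.5 times. Without exposed 1, called probes shared with isobutanol were 61, with 3-chloropropanol 65 and with 2,3,4-trichloroaniline 27. Median shares of the response with a control left out were 76.0% to 84.6%, 56.8% to 65.3% and 88.0% to 93.1% for replicates 1 to 3. Of the alternative values of named probes, 310 kept the call, 91 lost it and 0 reversed. No brightness was given, so no probe was screened for signal over background.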
